A study of Arabidopsis thaliana with 12 samples.

Results

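VTC2 (AT4G26850) and VTC5 (AT5G55120) are the 2 genes of Arabidopsis thaliana that encode GDP-L-galactose phosphorylase. They were chosen by locus identifier, and both were among the 33618 genes of the deposited table. RNA was sequenced from whole rosettes of 4 genotypes, with 3 libraries each and 12 in all. The vtc2 group carried the allele vtc2-4 and the vtc4 group carried vtc4-4. The OE group was 1 line, vtc2/OE-VTC2 L15, labelled as overexpressing VTC2, and it shares the vtc2 background with the vtc2 group. WT was the wild type. The sources used here do not describe the promoter or the transcribed part of the construct. All groups were untreated plants aged 4 weeks, grown in short days (8 h light, 16 h dark) at 22 °C under a photon flux of 300 μmol per square metre and second. Harvest was 30 min into the light period, and an independent pool of 8 rosettes made up each library.

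Plants make most of their ascorbate (vitamin C) from GDP-mannose by way of L-galactose. GDP-L-galactose phosphorylase releases L-galactose 1-phosphate from GDP-L-galactose, which is the first step committed to ascorbate and the one held to control the rate of the route in leaves. The enzyme belongs to the histidine triad (HIT) superfamily, and plants that lack both genes do not grow beyond the seedling stage unless they are given ascorbate or L-galactose. The message of each gene has an annotated upstream open reading frame in its leader. In VTC2 an upstream frame is known as an element through which ascorbate lowers translation of the enzyme. Whether that element is the annotated frame was not examined.

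Both gene models have 7 exons, all of them partly or wholly coding. In the TAIR10.1 annotation, VTC2 lies on the minus strand of chromosome 4 from 13498956 to 13501701, with a transcript of 2191 bases, of which 1329 are coding. VTC5 lies on the plus strand of chromosome 5 from 22369007 to 22371867, with a transcript of 1962 bases, of which 1296 are coding. The annotated upstream reading frame is 69 bases long in VTC2 (13501383 to 13501451) and 63 bases long in VTC5 (22369259 to 22369321).

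Coding exon 5 is shown because it has 186 bases in both genes and shows how far reads of the paralogs can be told apart. It also ends with the codons of the histidine motif of these enzymes, here His-X-His-X-Gln, where X is any amino acid. The sequences below are from the TAIR10.1 genome, in the direction of transcription, and capitals mark the 29 bases at which the genes differ. The VTC2 exon is chr4:13500049-13500234 on the minus strand and the VTC5 exon is chr5:22370696-22370881 on the plus strand.
VTC2: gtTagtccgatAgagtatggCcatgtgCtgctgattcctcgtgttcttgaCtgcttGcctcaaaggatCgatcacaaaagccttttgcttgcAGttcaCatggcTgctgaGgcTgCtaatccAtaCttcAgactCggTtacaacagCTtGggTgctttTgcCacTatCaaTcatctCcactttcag
VTC5: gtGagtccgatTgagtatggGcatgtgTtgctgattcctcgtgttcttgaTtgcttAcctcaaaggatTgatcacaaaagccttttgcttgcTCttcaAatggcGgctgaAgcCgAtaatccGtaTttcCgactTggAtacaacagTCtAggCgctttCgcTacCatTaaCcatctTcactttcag
In this exon 84.4% of bases were identical, and the 15 bases of the motif at its end differed at 1. Over the whole coding alignment 990 of 1283 aligned bases were identical (77.2%). The longest identical run between the transcripts was 38 bases. It lies in the 5′ leader of both, just downstream of the annotated upstream reading frame. Reads were 75 bases long, and no stretch of that length was identical in both transcripts: the closest pair of stretches differed at 4 bases. A read without errors therefore matches only 1 of the transcripts in full. How the counting treated reads with mismatches is not stated in the labels.

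The libraries were alike in scale, with FPKM sums between 684606 and 757484 and between 16591 and 16962 genes at 1 FPKM or more. Of the 3 leaf genes looked at, LHCB1.1, of the light-harvesting antenna, stood at 6608 to 8643 FPKM over the 12 libraries and CA1, a carbonic anhydrase, at 2018 to 3161 FPKM, but RBCS1A, a small subunit of Rubisco that is abundant in leaves, was listed at 0 in all 12. Why RBCS1A was listed at 0 was not examined, and a listed 0 in this table was therefore not read as absence of the message. In the same libraries the floral gene AP3 was at 0.0802 FPKM or less and the root gene PYK10 at 10.9 to 31.2 FPKM. A lower value in whole rosettes can come from fewer cells of a type or from less RNA per cell, which cannot be told apart here.

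VTC2 message was abundant in rosettes with an intact VTC2 locus and close to the level of VTC5 in vtc2. Levels are in FPKM, which scales for transcript length and library size, so that both genes can be compared. VTC2 stood at 16.4, 20.3 and 14.8 FPKM in the vtc2 libraries, at 719, 781 and 850 FPKM in the vtc4 libraries, at 411, 366 and 372 FPKM in the OE libraries, and at 745, 810 and 900 FPKM in the WT libraries. The vtc2 libraries were the lowest and the OE libraries came next, with no overlap between them or with the other groups, while vtc4 and WT overlapped. By level, VTC2 ranked between 5233 and 6785 among the genes of the vtc2 libraries, and between 99 and 112 among the 21375 to 21551 genes above 0 in the WT libraries.

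Differences were tested with limma on log2(FPKM + 1) over 17290 genes with all 12 libraries in 1 fit, and genes with a Benjamini-Hochberg adjusted p under 0.05 count as called. VTC2 averaged 17.2 ± 2.79 FPKM in vtc2, which was 2.1% of the WT mean of 819 ± 77.4 FPKM (SD, n = 3 each). The difference was -5.50 on the log2(FPKM + 1) scale (SE 0.11, 95% interval -5.73 to -5.27, limma adjusted p = 2.42e-11), in a comparison in which 3.02% of all genes were called. It was the lowest of all 17290 differences. Against vtc4, where 1.36% of genes were called, the difference of vtc2 was -5.44 (SE 0.11, limma adjusted p = 2.78e-11). Which part of the VTC2 transcript gave the remaining fragments in vtc2 cannot be read from 1 value per gene.

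In vtc4, VTC2 averaged 783 ± 65.1 FPKM, or 95.7% of the WT mean. The difference from WT was -0.06 (SE 0.11, 95% interval -0.29 to 0.17, limma adjusted p = 1.0), with 0.0347% of genes called. VTC4 itself, the L-galactose 1-phosphate phosphatase of the next step, stood at 0.426, 0.416 and 0.276 FPKM in vtc4 libraries against 30.3, 25.2 and 29.3 FPKM in WT libraries, as the label says.

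In the libraries labelled OE, VTC2 averaged 383 ± 24.6 FPKM, which was 46.8% of the WT mean and 22.3 times the vtc2 mean. Against vtc2 the difference was 4.41 (SE 0.11, limma adjusted p = 3.07e-10, 5.14% of genes called). Against WT it was -1.09 (SE 0.11, 95% interval -1.32 to -0.86, limma adjusted p = 0.00147, 0.0174% of genes called), and against vtc4 -1.03 (SE 0.11, limma adjusted p = 0.00139, 0.0405% of genes called). The level of VTC2 message counted here was below WT in all 3 libraries of the line labelled as overexpressing it. How much of the transgene's transcript the counting could assign to the VTC2 gene model was not tested.

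**Figure D1:**
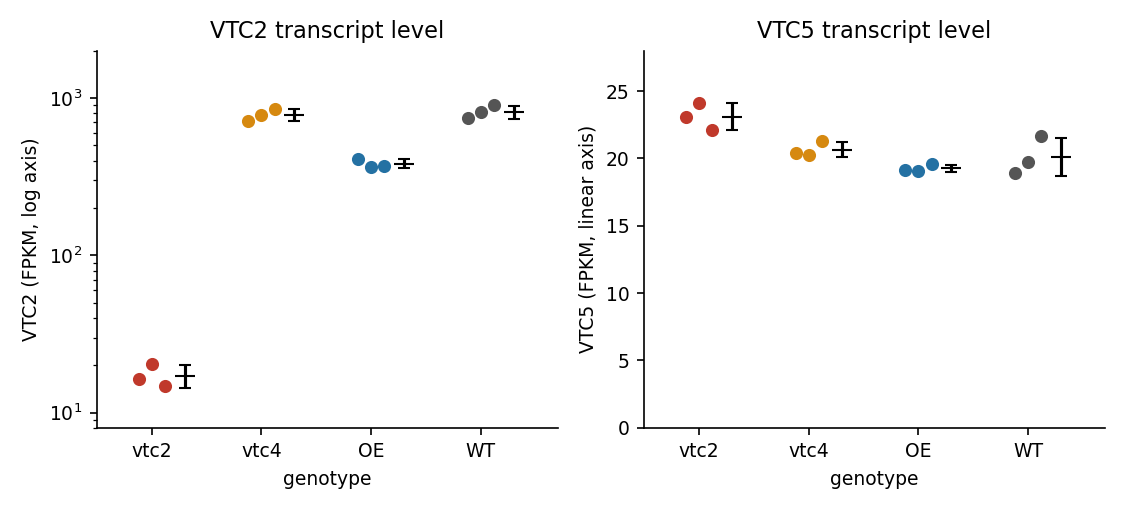
VTC2 (left, log axis) and VTC5 (right, linear axis from 0) in FPKM for each of the 3 libraries of vtc2, vtc4, OE and WT; points are libraries, and the bars beside them are the mean and SD. VTC2 separates vtc2 (14.8 to 20.3 FPKM) and OE (366 to 411 FPKM) from the other genotypes, while all VTC5 values lie between 18.9 and 24.1 FPKM.

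VTC5, the minor paralog, stayed between 18.9 and 24.1 FPKM in all 12 libraries. It stood at 23.1, 24.1 and 22.1 FPKM in the vtc2 libraries, at 20.4, 20.2 and 21.3 FPKM in the vtc4 libraries, at 19.1, 19.1 and 19.6 FPKM in the OE libraries, and at 18.9, 19.7 and 21.6 FPKM in the WT libraries. The 3 vtc2 libraries were the highest of the 12 and overlapped with no other group, and the OE libraries lay inside the WT range. How many of all genes separate groups in this way was not counted. VTC5 averaged 23.1 ± 1.01 FPKM in vtc2, 20.7 ± 0.576 FPKM in vtc4, 19.3 ± 0.282 FPKM in OE and 20.1 ± 1.41 FPKM in WT (SD, n = 3 each). By level the order was thus vtc2, vtc4, WT and OE. Neither vtc4 and WT nor OE and WT, neighbours in this order, differed beyond their spread. VTC5 was one of the steadier genes within genotypes, with a residual SD of 0.06 on the log2(FPKM + 1) scale, smaller than in all but 6.11% of tested genes. For VTC2 that SD was 0.15, with 70.6% of genes below it.

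Whether VTC5 made up for the loss of VTC2 at the level of message was asked by setting vtc2 against WT. The VTC5 mean was 14.9% higher in vtc2 than in WT, a difference of 0.19 on the log2(FPKM + 1) scale (SE 0.061, 95% interval 0.06 to 0.33). It did not pass the test over all genes (limma adjusted p = 0.111, unadjusted p = 0.00828), and 87.7% of genes had a lower difference. In this comparison 19.7% of all genes had an unadjusted limma p below 0.05. The 95% interval, which is not adjusted for the number of genes, did not include 0. In FPKM, VTC5 was higher by 2.99 in vtc2, against 801 FPKM of VTC2 missing there, so the VTC5 difference equalled 0.374% of the VTC2 difference. The FPKM sums of the vtc2 libraries (684606 to 695840) lay below those of all other libraries (706293 or more). Scaled to an equal sum per library (TPM), the VTC5 difference was 0.28 (limma adjusted p = 0.0535), with a median of 0.08 over all genes. With libraries weighted by their estimated quality, the difference was 0.22 and passed the test (limma adjusted p = 0.0463). Those weights also raised the number of genes called from 523 to 821. In 23 of 24 alternative settings the VTC5 difference did not pass, with a limma adjusted p of up to 0.295 (without vtc2 replicate 2).

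Against vtc4, the other ascorbate-route mutant, VTC5 was 11.8% higher in vtc2, a difference of 0.15 (SE 0.061, 95% interval 0.02 to 0.29) that did not pass the test (limma adjusted p = 0.185). Between vtc4 and WT the difference was 0.04 (SE 0.061, 95% interval -0.09 to 0.17, limma adjusted p = 1.0), and between OE and WT it was -0.06 (SE 0.061, 95% interval -0.19 to 0.08, limma adjusted p = 0.967). Neither interval holds a VTC5 difference from WT above 0.17 in vtc4 or above 0.08 in OE.

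VTC5 fell in OE against vtc2, its own background without the transgene. The OE mean was 16.6% lower, a difference of -0.25 (SE 0.061, 95% interval -0.38 to -0.12, limma adjusted p = 0.0393), and all 3 OE libraries lay below all 3 vtc2 libraries. This call was near the threshold, in a comparison with 5.14% of genes called. It ended under 13 of 24 other settings (pseudocounts, filters, scalings, variance models, a replicate block and each library left out in turn), with an adjusted p of up to 0.145 (without vtc2 replicate 2). Among the 12 fits that left out 1 library it held in 2, without WT replicate 1 and without WT replicate 3. OE against vtc4 gave -0.10 (SE 0.061, 95% interval -0.23 to 0.04, limma adjusted p = 0.985).

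**Figure D2:**
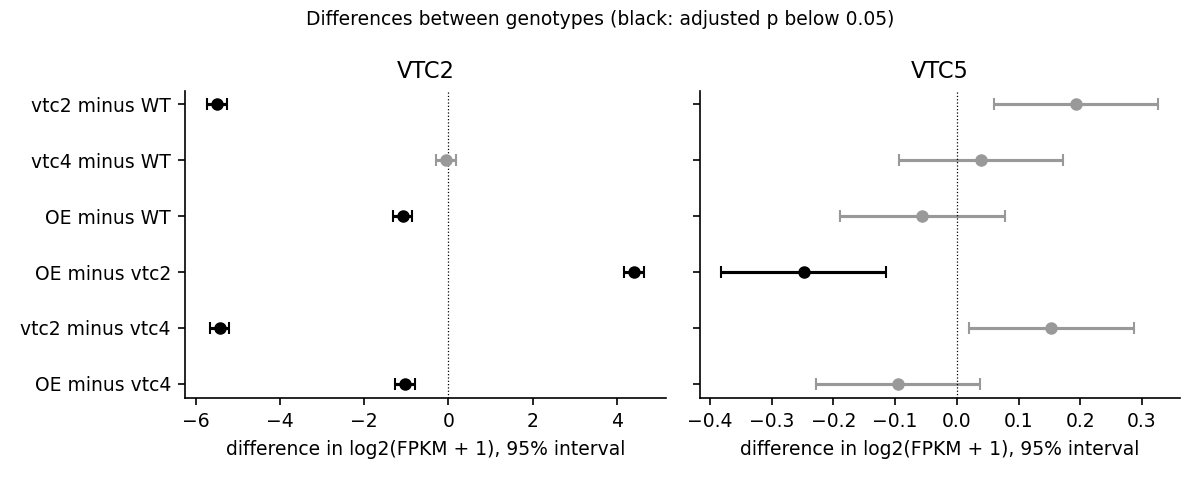
Differences in log2(FPKM + 1) between genotypes for VTC2 (left) and VTC5 (right), as points with 95% intervals from limma; black marks an adjusted p below 0.05, grey the rest. The axes of the panels differ: VTC2 differences reach -5.50, while those of VTC5 lie between -0.25 and 0.19.

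VTC5 was also compared with 6 libraries pooled on each side. In the groups that carry vtc2-4, with or without the transgene (vtc2 and OE against WT and vtc4), the VTC5 difference was 0.05 (SE 0.043, 95% interval -0.05 to 0.14, limma adjusted p = 0.70, 0.0636% of genes called; exact permutation p = 0.455, two-sided). In the 2 mutants against the other genotypes (vtc2 and vtc4 against WT and OE) it was 0.14 (SE 0.043, 95% interval 0.05 to 0.24, limma adjusted p = 0.16, 0.561% of genes called). The exact permutation test of that single value over the libraries gave p = 0.0152, or 0.0303 adjusted over both pooled comparisons. It shuffled libraries across all 4 genotypes, so libraries of 1 genotype counted as replicates of a pooled side. Its p therefore cannot tell a difference shared by both mutants from one of vtc2 alone. The unadjusted limma p was 0.00596, and 14.5% of all genes had one below 0.05. The groups of this comparison overlapped, since WT replicate 3 (21.6 FPKM) lay above all vtc4 libraries, and the means of vtc4 and WT alone differed by 0.557 FPKM.

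The balance of the paralogs turned over in vtc2. VTC5 made up 58.4%, 54.3% and 59.9% of the summed FPKM of both genes in the vtc2 libraries, 2.76%, 2.52% and 2.45% in the vtc4 libraries, 4.45%, 4.95% and 5.0% in the OE libraries, and 2.47%, 2.38% and 2.35% in the WT libraries. VTC5 was the more abundant gene in all 3 vtc2 libraries and the less abundant in the other 9, and the OE libraries lay above all vtc4 and WT libraries. Expressed the other way, VTC2 stood at 0.741 ± 0.0884 times VTC5 in vtc2, 37.9 ± 2.39 times in vtc4, 19.9 ± 1.39 times in OE and 40.7 ± 1.1 times in WT (SD, n = 3 each).

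The log2 ratio of VTC5 to VTC2 was tested by exact permutation over libraries, two-sided, for the 6 pairs of genotypes. It was higher by 5.79 in vtc2 than in WT and by 1.03 in OE than in WT, and the libraries of each pair did not overlap. It was higher by 5.68 in vtc2 than in vtc4 and by 0.93 in OE than in vtc4, and the difference of OE from vtc2 was -4.75, again without overlap. These 5 pairs gave an exact p of 0.1 each, the smallest that 3 libraries against 3 allow, and 0.12 after adjustment over the 6 pairs. The ratio in vtc4 was higher than in WT by 0.10, with overlapping libraries (exact p = 0.2). In WT the ratio of VTC2 to VTC5 had a coefficient of variation of 2.7% over the 3 libraries, against 9.46% for VTC2 and 7.02% for VTC5, and WT replicate 3 was highest for both genes.

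Summed over both genes, the level came to 40.2 ± 3.78 FPKM in vtc2, 804 ± 65.6 FPKM in vtc4, 403 ± 24.5 FPKM in OE and 839 ± 78.8 FPKM in WT (SD, n = 3 each). The vtc2 sum includes the remaining VTC2 fragments, and whether these encode the enzyme was not tested. The vtc2 sum was 4.8% of the WT sum, against 2.1% for VTC2 alone. The OE sum was 48.0% of the WT sum, and the OE libraries did not overlap with those of vtc2, vtc4 or WT (exact permutation p = 0.1 for each pair, the smallest possible).

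**Figure D3:**
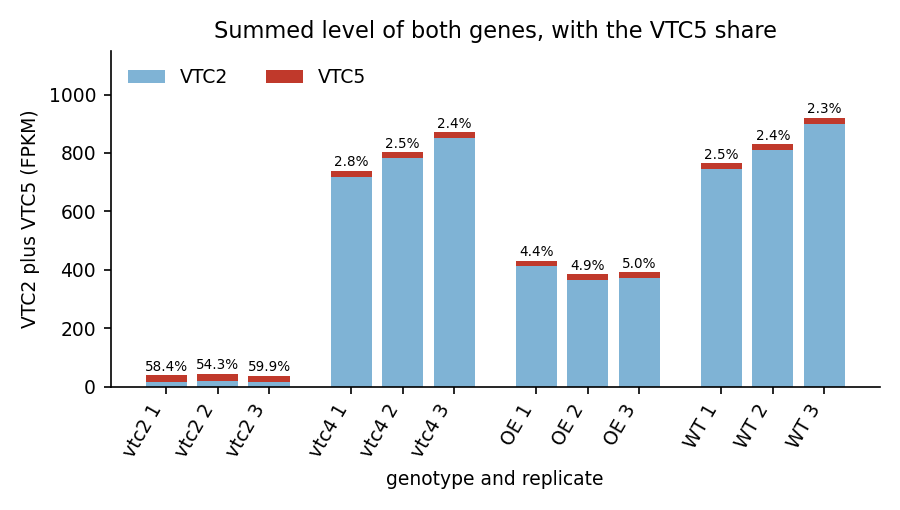
Summed FPKM of VTC2 (blue) and VTC5 (red) in each of the 12 libraries, from 0, with the VTC5 share of the sum printed above each bar. The bars of vtc2 reach 36.9 to 44.4 FPKM and VTC5 is 54.3% to 59.9% of each, while the VTC5 share is at most 5.0% in the other genotypes.

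The genes on either side of the members were examined for the same groups, 3 on each side. Of the 12 neighbours, 6 passed the filter on low values, and the other 6 averaged under 1 FPKM in every genotype. Next to VTC2, AT4G26860 fell in vtc2. It encodes a putative pyridoxal phosphate-dependent enzyme, and its nearer end lies 1351 bases from VTC2, on the side of the VTC2 transcription start and on the same strand. Its level was 78.7, 81.2 and 70.2 FPKM in the vtc2 libraries, 102, 101 and 102 FPKM in the vtc4 libraries, 97.3, 95.5 and 87.0 FPKM in the OE libraries, and 112, 104 and 113 FPKM in the WT libraries. The vtc2 libraries were the lowest, the OE libraries came next, and neither group overlapped with any other.

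In numbers, AT4G26860 differed by -0.51 in vtc2 against WT (SE 0.065, limma adjusted p = 0.00479, 3.02% of genes called), and this call held under all 24 other settings. No other tested neighbour was called in any of the 6 pairs. AT4G26860 was also lower in vtc2 than in vtc4 (-0.41, SE 0.065, limma adjusted p = 0.0205, 1.36% of genes called) and higher in OE than in vtc2 (0.28, SE 0.065, limma adjusted p = 0.0329, 5.14% of genes called), calls that ended under 6 and 8 of the 24 settings. The call against vtc4 was lost without vtc2 replicate 2 or 3 or any vtc4 library (adjusted p of up to 0.101), and that of OE against vtc2 without OE replicate 1 or 2, vtc2 replicate 2 or 3 or vtc4 replicate 1 (up to 0.133). OE against WT gave -0.23 (SE 0.065, limma adjusted p = 0.585). In the carriers of vtc2-4 against the other groups the gene was lower by 0.32 on this scale (-0.32, SE 0.046, limma adjusted p = 0.0324, 0.0636% of genes called). That call ended under 13 of 23 settings, 10 of them with 1 library left out (any but WT replicate 2 and vtc2 replicate 1, adjusted p of up to 0.109). AT4G26870, of the aminoacyl-tRNA synthetase superfamily, lies next on the same side and was not called by limma in any of the 6 pairs. It differed by -0.03 in vtc2 against WT (limma adjusted p = 0.86), by -0.15 in OE against vtc2 (limma adjusted p = 0.183, unadjusted p = 0.0368) and by -0.17 in OE against WT (limma adjusted p = 0.727, unadjusted p = 0.0173). Over all genes, 23.3% in OE against vtc2 and 6.04% in OE against WT had an unadjusted limma p below 0.05.

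**Figure D4:**
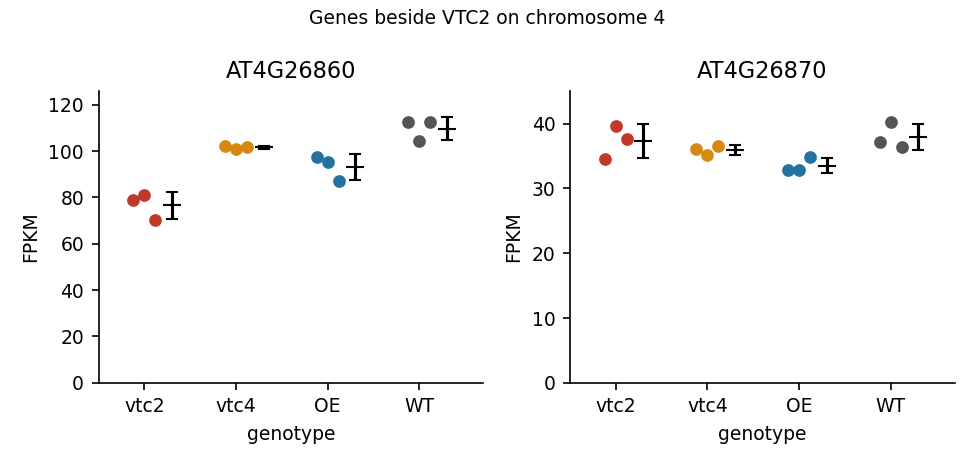
FPKM, from 0, of AT4G26860 and AT4G26870, neighbours of VTC2, in each library of vtc2, vtc4, OE and WT; points are libraries, and the bars beside them are the mean and SD. AT4G26860 averages 76.7 FPKM in vtc2, 93.3 in OE, 102 in vtc4 and 110 in WT, while the AT4G26870 libraries of vtc2 and WT overlap.

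Next to VTC5, none of the 3 tested neighbours was called by limma in any of the 6 pairs, in which 0.0174% to 5.14% of all genes were called. CNX5, which encodes an enzyme of molybdenum cofactor synthesis, averaged 15.8 ± 1.41 FPKM in vtc2 and 14.1 ± 0.459 FPKM in WT (SD, n = 3 each), a difference of 0.15 (limma adjusted p = 0.283). Its unadjusted p was below 0.05 in OE against vtc2 (-0.17, limma adjusted p = 0.197) and in vtc2 against vtc4 (0.16, limma adjusted p = 0.229). So was that of 23.3% and 21% of all genes in these comparisons. AT5G55125, annotated as a ribosomal protein, begins 123 bases downstream of VTC5. It averaged 14.0 ± 0.364 FPKM in vtc2 and 16.0 ± 2.67 FPKM in WT, the opposite direction to VTC5 (limma adjusted p = 0.424).

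Within the route to ascorbate, VTC2 was at rank 9 of 12 genes by FPKM in vtc2 and the most abundant in vtc4, OE and WT. In vtc2 the highest was GME, the GDP-mannose epimerase that makes the substrate of VTC2 and VTC5, at 308 ± 17.8 FPKM in vtc2 and 350 ± 21.2 FPKM in WT. VTC5 stood at rank 8 in vtc2 and vtc4 and rank 9 in OE and WT. Its WT level was below that of VTC4 (28.3 ± 2.67 FPKM) and of the L-galactose dehydrogenase gene GALDH (36.1 ± 1.88 FPKM). It was above GLDH, the gene of the last, mitochondrial step (7.98 ± 0.382 FPKM).

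The other 10 genes of the route were set beside the shares over all genes. In vtc2 against WT, 0 of 10 were called by limma, against 3.02% of all genes, and 4 had an unadjusted p below 0.05, against 19.7% of all genes, with a median difference of -0.06, against 0.0018 over all genes. These 4 were PMI2, a phosphomannose isomerase at the head of the route (-0.28, limma adjusted p = 0.202), GME (-0.19, limma adjusted p = 0.143), GALDH (-0.17, limma adjusted p = 0.197) and GLDH (-0.16, limma adjusted p = 0.23). In OE against vtc2, 1 of 10 rose and 0 fell (2.94% of all genes rose and 2.2% fell), with 4 at an unadjusted p below 0.05 (23.3% of all genes) and a median of 0.03 against -0.0022 over all genes. The riser was GLDH, at 8.76 ± 0.74 FPKM in OE and 7.03 ± 0.0263 FPKM in vtc2 (0.28, SE 0.07, limma adjusted p = 0.0417), a call that ended under 14 of 24 settings, with an adjusted p of up to 0.122. Among the fits with 1 library left out it held in 2, without WT replicate 1 and without WT replicate 3. In vtc4 against WT, where 0.0347% of all genes were called, VTC4 was the 1 gene of 10 called. In OE against WT 0 of 10 were called by limma, against 0.0174% of all genes, and 1 had an unadjusted p below 0.05 (VTC4, -0.27, limma adjusted p = 0.719), against 6.04% of all genes. VTC1, the GDP-mannose pyrophosphorylase, averaged 128 ± 4.29 FPKM in vtc2, 122 ± 7.6 in vtc4, 122 ± 4.58 in OE and 125 ± 4.14 in WT.

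**Figure D5:**
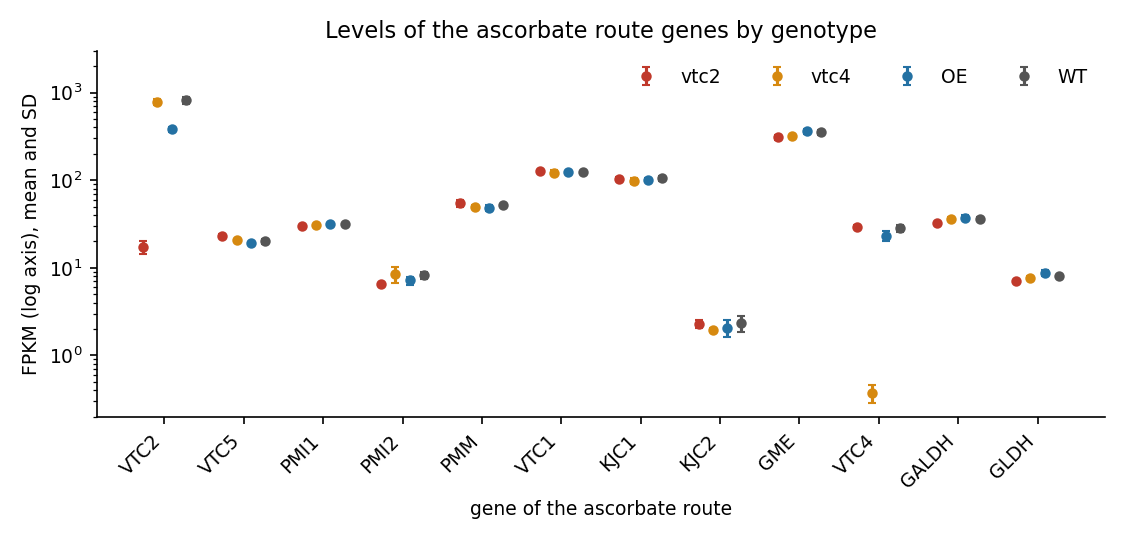
Mean and SD of FPKM over 3 libraries (log axis) for VTC2, VTC5 and the 10 other genes of the ascorbate route in vtc2, vtc4, OE and WT. VTC2 in vtc2 and OE, and VTC4 in vtc4, stand apart from the other genotypes, while VTC5 stays between 19.3 and 23.1 FPKM in the group means.

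Of 8 regulators of the route, 6 were tested and 0 were called by limma in any of the 6 pairs, in which 0.0174% to 5.14% of all genes were called. In OE against vtc2 1 of the 6 (ERF98) had an unadjusted p below 0.05, against 23.3% of all genes, and in each other pair 0 did. At these shares, counts of 0 among 6 genes are near the background. PLP, a PAS/LOV protein known to bind VTC2 and VTC5, averaged 27.2 ± 3.8 FPKM in vtc2, 24.4 ± 3.31 in vtc4, 29.0 ± 3.29 in OE and 28.6 ± 5.16 in WT. VTC3, a kinase-phosphatase fusion protein needed for normal ascorbate content, averaged 6.92 ± 0.137 FPKM in vtc2, 7.05 ± 0.622 in vtc4, 6.88 ± 0.413 in OE and 7.46 ± 0.938 in WT. AMR1 and ABI4 were listed at 0 in all 12 libraries. So was the leaf gene RBCS1A. Of these 8 genes, ERF98, an activator of the route, passed the filter at levels near 1 FPKM (0.514 ± 0.255 in vtc2, 0.915 ± 0.45 in vtc4, 1.08 ± 0.142 in OE and 0.711 ± 0.0291 in WT).

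The 7 other genes of the HIT superfamily listed here were tested and 0 were called by limma in any of the 6 pairs, again against 0.0174% to 5.14% of all genes. In vtc2 against WT their median difference was -0.07, and 2 of 7 had an unadjusted p below 0.05, against 19.7% of all genes. In OE against vtc2 1 did (HINT3), against 23.3% of all genes, and in each other pair 0. Those of vtc2 against WT were HINT1 at 27.1 ± 2.9 FPKM in vtc2 and 32.3 ± 3.22 FPKM in WT (limma adjusted p = 0.199) and HINT3 at 17.1 ± 0.0991 FPKM in vtc2 and 19.9 ± 1.67 FPKM in WT (limma adjusted p = 0.118). All 7 had WT levels between 3.0 and 33.2 FPKM, against 20.1 FPKM for VTC5 and 819 FPKM for VTC2.

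The genes most like each member by Pearson correlation of log2(FPKM + 1) over the 12 libraries are given as a description. The libraries are not 12 independent points, since vtc2 stood apart for both members, and OE also did for VTC2. Most like VTC2 were AT1G77090, a thylakoid lumen protein of the PsbP family, and CYP97B3, a cytochrome P450, followed by AT1G07450, AT1G16080 and the MADS-box gene AGL87. Their coefficients ran between 0.957 and 0.978. AT1G07450, of the NAD(P)-binding Rossmann-fold superfamily, averaged 2.17 ± 0.184 FPKM in vtc2, 4.78 ± 0.232 in vtc4, 4.71 ± 0.459 in OE and 5.16 ± 0.579 in WT. In these 5 genes the vtc2 libraries were the lowest. Their OE means were 0.954 to 1.01 times their vtc4 means, while for VTC2 the OE mean was 48.9% of the vtc4 mean.

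Most like VTC5 were CLV2, a receptor-like protein of the CLAVATA pathway, then AT2G30700, AT1G80510, AT5G27093 and AT1G31130, with coefficients between 0.888 and 0.90. CLV2 averaged 3.92 ± 0.13 FPKM in vtc2, 3.26 ± 0.216 in vtc4, 2.96 ± 0.111 in OE and 3.11 ± 0.205 in WT, the same order of groups as VTC5. AT2G30700 and AT1G31130 had that order too. In AT1G80510 and AT5G27093 the WT mean lay above the vtc4 mean (5.416 against 5.388 and 1.628 against 1.585 FPKM). These genes were picked by likeness over the same libraries, so a shared order is no separate support. VTC2 itself stood at rank 16848 of 17289 in likeness to VTC5, with a coefficient of -0.73. That coefficient rests on vtc2 standing apart, and no test was made of it.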

How the data were processed

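RNA-seq of 12 rosette libraries was deposited by the authors as 1 table of FPKM (fragments scaled to transcript length and library size) for 33618 genes. The submitters' processing notes name HISAT2 2.1.0, Trimmomatic 0.36, Cuffdiff and Cufflinks 2.2.1, and TAIR10 as the genome build. How the tool scaled library size and counted reads that fit several genes is not given in the sources used here. Read totals are not given either, so no counting intervals were made. A rough estimate from genes with low values put the worth of 1 fragment at 0.914 to 1.01 times that in WT replicate 1.

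Differences were tested with limma 3.58.1 (R 4.3.3) on log2(FPKM + 1), with an intensity trend, over the 17290 genes at 1 FPKM or more in at least 3 libraries. Genotype was the only term, and p-values were Benjamini-Hochberg adjusted over all genes. Differences on this scale understate the change of low genes. The log2 ratio of VTC5 to VTC2 and their log2 sum were tested by exact permutation over libraries with scipy 1.17.1. The procedure was checked on simulated data. Libraries are labelled as independent pools of plants. Alternatives were 2 other pseudocounts, other filters and scalings, other variance models, a replicate block and leaving out each library.

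The members and gene lists were chosen with earlier results of these data known. The genes named are the members, genes of the lists of ascorbate-route genes, regulators and HIT genes, the 3 neighbours on each side (the values of 1 of them are not reported here), and the 5 most like each member. The locus of VTC3 was set from the annotation (a kinase-phosphatase fusion) after the files had been read. Gene models, coordinates and exon sequences are from RefSeq's TAIR10.1 annotation and genome, and 32217 of the 33618 gene IDs matched it.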

Additional observations from a re-analysis of the deposited data

How the results depend on the processing

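VTC2 calls in vtc2 and in OE held under all 24 other settings, and the log2 ratio of VTC5 to VTC2 kept its direction in all 15 settings run for it. The VTC5 difference between OE and vtc2 was -0.23 under quantile scaling (limma adjusted p = 0.0573), -0.25 with only the groups compared in the fit (0.0888) and -0.25 without the trend (0.0539). Leaving out each library in turn it ran from -0.28 to -0.22, with an adjusted p of 0.0268 to 0.145, and kept its call in 2 of these 12 fits, without WT replicate 1 and without WT replicate 3. With library weights, OE against vtc2 gave -0.27 (0.0085), its lowest adjusted p over the 24 settings, and 2 further VTC5 differences passed: 0.22 in vtc2 against WT (0.0463) and 0.16 in vtc2 and vtc4 against WT and OE (0.0455). In vtc4 against WT, leaving out a library turned the sign of 3 small differences, none of which passed its test in any setting. VTC5 ran from -0.0019 (without WT replicate 1) to 0.092, VTC2 from -0.13 to 0.0081 (without WT replicate 3), and the log2 sum of both genes from -0.12 to 0.0103 (without WT replicate 3). The cause of these shifts was not tested.

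Same-numbered libraries deviated together in 6 of 18 pairs (correlation over 0.1, range -0.17 to 0.20), so the numbers were not taken to pair them. With the replicate block the VTC5 difference between OE and vtc2 was -0.25 (limma adjusted p = 0.0496), and the block changed no call for VTC2 or VTC5. GLDH in OE against vtc2 lost its call there (0.0563).

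The number of genes called moved far more. It was 523 in vtc2 against WT (37 with only these groups in the fit, 821 with library weights), 6 in vtc4 against WT (5 to 19), 3 in OE against WT (2 to 20), 888 in OE against vtc2 (124 to 2913), 236 in vtc2 against vtc4 (7 to 1196) and 7 in OE against vtc4 (5 to 12). It was 11 in vtc2 and OE against WT and vtc4 (5 to 33) and 97 in vtc2 and vtc4 against WT and OE (28 to 492). With 3 libraries a group, no exact test of a pair can go below p = 0.1.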
